A study of Mus musculus with 4 samples.

Results

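Oncostatin M receptor (Osmr) and leukaemia inhibitory factor receptor (Lifr) lie beside each other on mouse chromosome 15, and they were examined here for binding of NR6A1 by chromatin immunoprecipitation followed by sequencing. The members were all NR6A1 peaks with a midpoint in a 500-kb window, chr15:6700000-7200000 on mm9. They numbered 30 of the 21507 peaks in the list of NR6A1 replicate 1 and 11 of the 16160 peaks in the list of NR6A1 replicate 2. Merging of overlapping peaks gave 32 regions in the window, of 28444 regions over both lists. The window was chosen because a run of 16 regions in it was found in replicate 1 only, so that run is described without a test.

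The cells were a monoclonal, immortalized line of mesenchymal stem cells from C57BL/6 mice with floxed Dicer (Dicer f/f), labelled Dicer WT. A retrovirus (pMMP-puro) gave them NR6A1 with Flag and HA tags, and infected cells were selected with puromycin. The antibody was anti-HA, so the peaks are those of the virally expressed protein and not of the cells' own NR6A1. The 2 vector libraries, from the same line with the empty virus, are not analysed here, so no background of the antibody stands beside the values. The labels do not say whether the 2 NR6A1 replicates came from separate infections or cultures, and both come from 1 clone.

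NR6A1, also called germ cell nuclear factor, is an orphan nuclear receptor that binds direct repeats of AGGTCA with no spacing and is known as a repressor of pluripotency genes such as Pou5f1. LIFR and OSMR are receptors of the interleukin-6 family. Each pairs with the common subunit gp130 (Il6st), LIFR to receive leukaemia inhibitory factor and OSMR to receive oncostatin M, and both signal through JAK kinases and STAT3. In mesenchymal and bone marrow stromal cells, oncostatin M is known for favouring bone over fat differentiation, and leukaemia inhibitory factor is known for keeping mouse embryonic stem cells undifferentiated.

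In the RefSeq gene order the window runs from Rictor, a subunit of the mTORC2 kinase complex, through Osmr, the noncoding RNA genes Gm30559, Gm30663 and Gm30971, and Lifr, to Egflam, which encodes the matrix protein pikachurin. Osmr is on the minus strand and Lifr on the plus strand, so the 5′ ends of both genes face the interval between them. Approximate mm9 spans were used for both genes, from 6.76 to 6.82 Mb for Osmr and from 7.04 to 7.15 Mb for Lifr. They are rounded to 10 kb and come from the definition of the window, not from an annotation. The gene lengths in RefSeq are 61.4 kb for Osmr and 107 kb for Lifr. Exons, introns and start sites could not be placed on mm9.

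The genome sequence under the peaks was not at hand, and the sequences shown are the RefSeq promoters of the 2 receptor genes, the 250 bases before each start that RefSeq gives, to show what NR6A1-type letters they hold. They are read on the strand of the gene, from GRCm38.p6 at chr15:6874314-6874563 (minus) for Osmr and at chr15:7129322-7129571 and chr15:7140292-7140541 (both plus) for Lifr. These positions are of another build than the peaks and cannot be set against them. In RefSeq's gene span the 2 Lifr starts shown lie 39.0 and 49.9 kb from its left end, so they are inside the span, and whether a peak lies at one of them cannot be told. Capitals mark a match to CAAGGTCA or its reverse complement TGACCTTG.
Osmr promoter: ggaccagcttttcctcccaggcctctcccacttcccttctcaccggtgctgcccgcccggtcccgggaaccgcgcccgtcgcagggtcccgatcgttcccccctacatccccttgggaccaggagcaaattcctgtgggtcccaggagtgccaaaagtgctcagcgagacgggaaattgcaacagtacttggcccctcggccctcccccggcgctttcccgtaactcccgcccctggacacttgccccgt
Lifr first promoter: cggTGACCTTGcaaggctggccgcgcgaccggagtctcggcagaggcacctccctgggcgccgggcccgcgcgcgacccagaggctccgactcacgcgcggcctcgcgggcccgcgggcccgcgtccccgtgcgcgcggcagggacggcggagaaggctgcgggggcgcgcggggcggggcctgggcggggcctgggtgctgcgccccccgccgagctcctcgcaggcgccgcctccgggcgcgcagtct
Lifr second promoter: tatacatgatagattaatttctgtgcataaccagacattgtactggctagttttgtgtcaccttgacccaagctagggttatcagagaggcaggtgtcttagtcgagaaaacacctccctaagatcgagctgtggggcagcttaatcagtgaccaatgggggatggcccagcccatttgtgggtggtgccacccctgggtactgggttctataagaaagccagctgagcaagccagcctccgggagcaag
The motifs searched on both strands were the direct repeat of AGGTCA with no spacing, the extended site TCAAGGTCA, which is the right-hand part of that repeat, and the shorter CAAGGTCA within both, which was chosen after the sequences had been seen. Only exact matches were searched, so stretches that differ from a motif by a base are not marked. An example is tcaccttga in the second Lifr promoter, which differs by a base from TGACCTTGA, the reverse complement of TCAAGGTCA. Such stretches were not counted in these or the other promoters, so the marks do not set the first Lifr promoter apart. The direct repeat and TCAAGGTCA had no exact match in any of these promoters. CAAGGTCA had 1 match, on the opposite strand of the first Lifr promoter, at bases 4 to 11 of the sequence shown. Among all 32851 promoter sequences cut to the same length, 0.0061% held the direct repeat, 0.387% held TCAAGGTCA and 1.33% held CAAGGTCA. GC content was 66.0% in the Osmr promoter, 82.4% in the first Lifr promoter and 50.8% in the second, against a median of 52.4% over all promoters (quartiles 45.2 and 61.2%). A match is a stretch of letters and not a bound site.

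Across the window NR6A1 peaks were found in both replicates on either side of the run and in replicate 1 alone within it. Peaks count as partners here when they overlap by at least 1 bp. Of the 30 replicate 1 peaks 9 had a partner and 21 did not, which is 70.0%, beside 57.3% of all replicate 1 peaks and 50.9% of those on chromosome 15. Of the 11 replicate 2 peaks 9 had a partner and 2 did not, or 18.2%, beside 44.0% over the whole replicate 2 list and 41.6% on chromosome 15. By regions, 9 were in both lists, 21 in replicate 1 only and 2 in replicate 2 only; over the whole lists, replicate-1-only regions made up 43.3% and replicate-2-only regions 25.0%. Outside the run, 5 of 14 replicate 1 peaks lacked a partner, or 35.7%. The run supplied 16 of the 21 unpartnered peaks, and since it chose the window, nothing is read from the share of 70.0%.

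**Figure D1:**
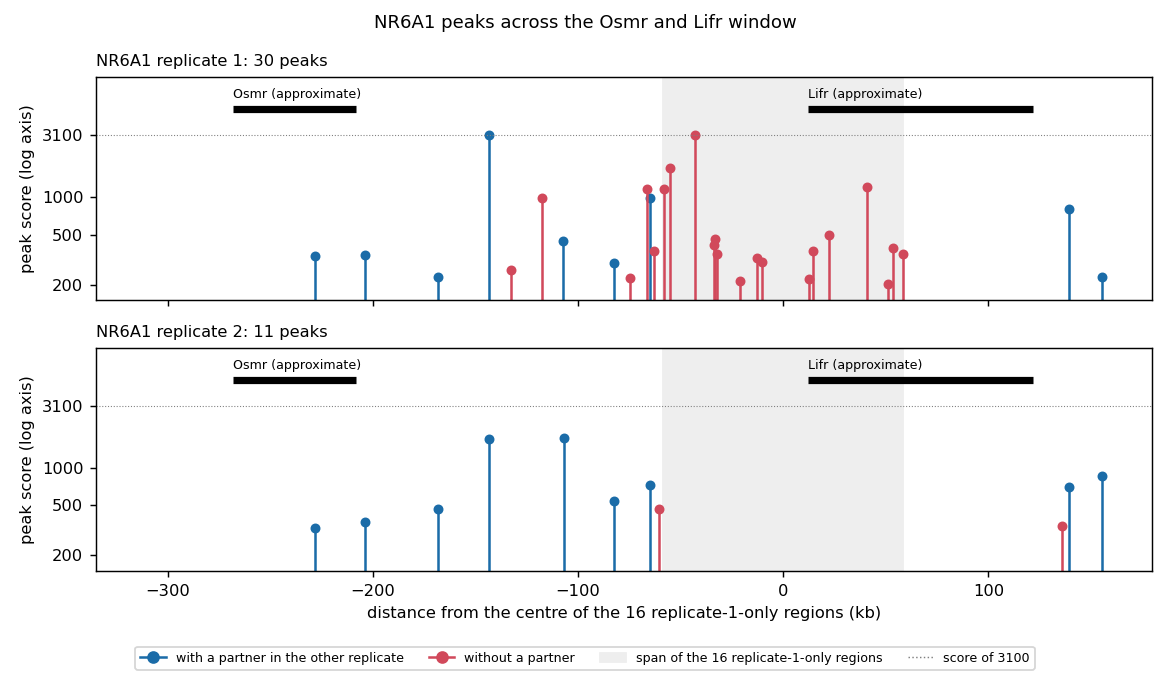
NR6A1 peaks of replicate 1 (upper panel, 30 peaks) and replicate 2 (lower panel, 11 peaks), with the distance in kb from the centre of the 16 replicate-1-only regions on the x axis and the deposited peak score on a log y axis. Blue peaks have a partner in the other replicate and red ones do not, the grey band spans the 16 regions, black bars are approximate gene spans and the dotted line is a score of 3100. Blue pairs stand on both sides of the band, and the lower panel is empty inside it.

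Each peak carries a score of the authors' peak caller, MACS, and higher values are taken here as stronger peaks. Scores start at 200.01 in replicate 1 and 200.04 in replicate 2, and run up to 3218.29 and 3219.64. In replicate 1, 239 peaks are tied at 3100 and 26 score above it, and in replicate 2 these numbers are 187 and 24; how strong a peak tied at 3100 is against those above it is unknown. A score depends on the depth and background of its own library, and read depth is unknown from these lists.

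The approximate span of Osmr held 1 pair of peaks. In replicate 1 the peak was at chr15:6799732-6800230 with a score of 340.2, and in replicate 2 at chr15:6799704-6800328 with a score of 328.17. These scores lay above 38.1% of the replicate 1 list and 38.6% of the replicate 2 list, so the Osmr pair was of modest and like rank in both. A second pair lay at chr15:6824149-6824692 in replicate 1 (345.11) and chr15:6824030-6824768 in replicate 2 (368.07). Its midpoint was 4.42 kb beyond the approximate right-hand end of Osmr, which is the start of this minus-strand gene. That distance is within the rounding of the gene's span, so it cannot be told whether this pair lies at the Osmr start or upstream of it. No peak of either list lay between the left edge of the window and the Osmr pair.

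Between Osmr and the run, 5 further pairs were found. The first was at chr15:6859566-6860132 in replicate 1 with 231.22, against 470.38 at chr15:6859543-6860126 in replicate 2. The next, at chr15:6884300-6885086, had the highest replicate 1 score outside the run, the tied value of 3100, with 1690.61 at chr15:6884311-6885044 in replicate 2, and both partners ranked in the upper tail of their lists, above 98.8% and 94.6% of peaks. The pair at chr15:6920599-6921157 had 448.69 in replicate 1 and 1713.32 at chr15:6920569-6922081 in replicate 2, which was the highest replicate 2 score of the window. Its replicate 2 peak was 1513 bp wide and its replicate 1 peak 559 bp, with midpoints 447 bp apart. This was the pair whose replicates differed most in score, by 3.82-fold, and also the one whose outlines differed most. The pairs nearest to the run followed. One was at chr15:6945263-6945843 in replicate 1 with 297.05 and at chr15:6945207-6945829 in replicate 2 with 538.98. The other was at chr15:6962905-6963546 in replicate 1 with 985.24 and at chr15:6962886-6963620 in replicate 2 with 727.83.

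Right of Lifr, 2 pairs were found toward Egflam. The first had 804.18 at chr15:7166984-7167516 in replicate 1 and 700.48 at chr15:7166913-7167536 in replicate 2. The second had 229.56 at chr15:7183386-7183834 in replicate 1 and 850.92 at chr15:7183180-7183947 in replicate 2, a 3.71-fold difference in favour of replicate 2. These pairs lay 17.2 and 33.6 kb beyond the approximate right-hand end of Lifr, its 3′ side. The replicates were thus both present within 100 kb of the run on either side, with replicate 2 the higher in some pairs and the lower in others.

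In the 9 pairs of the window, replicate 1 had the higher score in 4 and replicate 2 in 5. Their log2 score ratio, replicate 1 over replicate 2, had a median of -0.09 with an SD of 1.01 over pairs, and the ratios ran from -1.93 to 0.87. The upper end is the pair with the tied score of 3100, so its ratio is that of the deposited scores only, and the other 8 ran from -1.93 to 0.44. Over all 9223 overlapping pairs of the lists the median was 0.00 and the SD 1.12. In 6 of the 9 pairs the scores were within 2-fold of each other, or 66.7%, beside 65.4% of all pairs. Replicate 2 gave the wider peak in 8 of the 9, beside 70.6% of all pairs, with a median width ratio of 1.17 against 1.14. Midpoints lay a median of 27.5 bp apart (14.5 to 447 bp), and 37.5 bp apart over all pairs. The scores and positions of the flanking pairs were therefore near those of the lists at large. Unequal depth or background of the 2 libraries would enter these ratios, and pairs exist only where both lists have a peak, so these values say nothing of the sites without one.

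**Figure D2:**
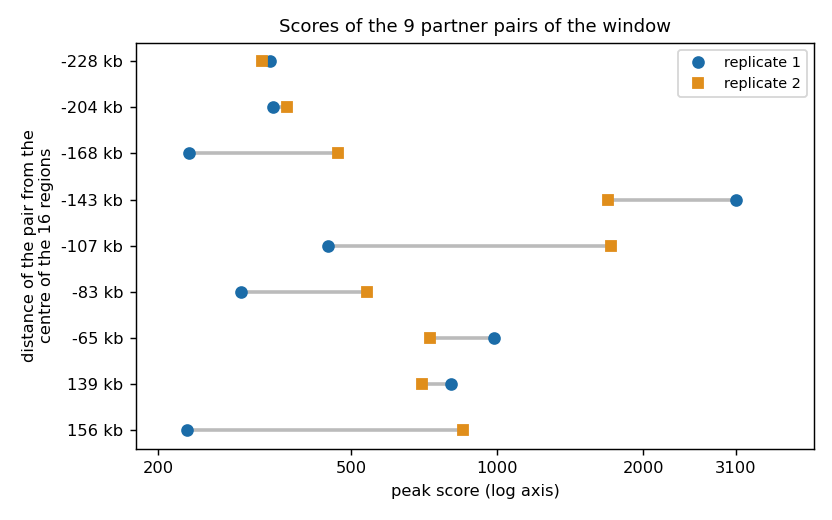
Scores of the 9 partner pairs of the window on a log x axis, one row a pair, ordered along the chromosome and marked by distance in kb from the centre of the 16 replicate-1-only regions. Circles are replicate 1 and squares replicate 2; replicate 1 is the higher in 4 rows and replicate 2 in 5, and the widest separation is 448.69 against 1713.32.

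The 16 replicate-1-only regions lay at chr15:6969590-7086557, over 117 kb. Of these, 9 lay between Osmr and Lifr and 7 in the left part of the approximate Lifr span, which is the 5′ side of that gene. Each of the 16 regions was a single replicate 1 peak. Together the peaks covered 10.2 kb, or 8.70% of the stretch. The 15 gaps between neighbouring peaks had a median of 7.26 kb and ranged from 71 bp to 22.1 kb, and 11 of them were within 10 kb.

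Of the 4 peaks of the run with a score of 1000 or more, 3 stood at its left end, away from Lifr. The first peak, at chr15:6969590-6970290, had a score of 1160.35, and the second, at chr15:6972439-6973317, had 1707.71. The third, at chr15:6984604-6985918, had the tied score of 3100 and was the widest replicate 1 peak of the window, at 1315 bp. Its midpoint was 54.7 kb to the left of the approximate Lifr span, and the nearest replicate 2 peak was 16.8 kb away. That site and the shared site at chr15:6884300-6885086 were the only peaks of the window at 3100, and one had a partner and the other none.

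A group of 3 peaks followed within 2 kb. They were at chr15:6994031-6994667 with a score of 410.01, at chr15:6994739-6995332 with 458.28 and at chr15:6995566-6996021 with 348.09. The gaps between them were 71 and 233 bp, so they may be counted as 1 site. The remaining peaks before Lifr were weak: 212.87 at chr15:7006807-7007279, 324.71 at chr15:7014992-7015600 and 303.47 at chr15:7017710-7018186. The first of these ranked above 4.75% of its list. A gap of 22.1 kb without a peak of either list then separated them from the peaks in Lifr.

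In the approximate span of Lifr, all 7 peaks were of replicate 1 alone. At its left edge lay peaks at chr15:7040252-7040829 with a score of 219.47 and at chr15:7042162-7042832 with 366.87. Their midpoints were 0.54 and 2.50 kb inside the span, less than its rounding, so they can lie in the gene or before it. They were followed by a peak at chr15:7050096-7050622 with 495.51 and by the strongest Lifr peak, at chr15:7068665-7069497 with 1205.45. The latter was 29.1 kb inside the span, scored above 88.4% of the replicate 1 list, and was 94.0 kb from the nearest replicate 2 peak, farther than any other peak of the window. The last 3 peaks were at chr15:7079082-7079509 with 203.61, at chr15:7081541-7082023 with 393.44 and at chr15:7086040-7086557 with 349.8. The first of these ranked above only 1.21% of its list, close to the minimum score. Midpoints of these 3 peaks were 39.3, 41.8 and 46.3 kb inside the approximate span. The Lifr starts shown above lie 39.0 and 49.9 kb from the left end of the RefSeq span, on the other build. Given the rounding, whether any of these peaks lies at a start cannot be told. The approximate span of Lifr, whose left edge is uncertain by the rounding, thus had 1 replicate 1 peak of 1000 or more, 6 weaker ones and no replicate 2 peak.

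The edges of the run differed. On the left, peaks of both lists alternated closely: the last replicate 2 peak before the run, at chr15:6967139-6967815 with a score of 468.03, had no partner and lay 1.77 kb from the first peak of the run and 1.59 kb from the replicate 1 peak before it. On the right, neither list had a peak for 77.0 kb, from 7086558 to 7163539, which takes in the right part of the approximate Lifr span. The first peak after this gap was the other unpartnered replicate 2 peak, at chr15:7163540-7164141 with 341.71. Replicate 2 thus had no peak for 196 kb, and replicate 1 peaks filled only the left part of that stretch. Stretches without a replicate 2 peak were found elsewhere too. Of 21507 stretches of 117 kb, each laid from the start of a replicate 1 peak, 4382 held no replicate 2 peak. These stretches are shorter than 196 kb, need hold no replicate 1 peak beyond that at their start, and include some in the run itself. Outside the window, none of them held more than 10 replicate 1 peaks. The lists show only that no replicate 2 peak was called between 6967815 and 7163540, and a site there may lie just below the cutoff.

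The 5 unpartnered replicate 1 peaks outside the run all lay between Osmr and the run. Scores were 259.97 at chr15:6894989-6895390, 981.19 at chr15:6909890-6910684, 227.22 at chr15:6953289-6953756, 1162.53 at chr15:6961220-6961950 and 367.36 at chr15:6965013-6965548. Their gaps to the nearest replicate 2 peak ran from 0.94 to 9.94 kb, whereas the gaps of the 16 run peaks ran from 1.77 to 94.0 kb with a median of 48.5 kb. Over all unpartnered replicate 1 peaks the median gap was 28.2 kb. The run was chosen as a stretch without replicate 2 peaks, so its larger gaps follow from that choice and nothing is read from them. The unpartnered peak with 1162.53 lay only 0.94 kb from a replicate 2 peak that had another replicate 1 peak as its partner.

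In median score, the run was near the rest of the replicate 1 list. Its median was 380 (quartiles 319 and 662), beside 356 for the 14 other replicate 1 peaks of the window, 417 over the whole list and 363 over all unpartnered replicate 1 peaks. Scores of 1000 or more were reached by 4 of the 16, or 25.0%, beside 15.9% of the whole list and 10.5% of all unpartnered replicate 1 peaks. Under 500 there were 12 of the 16, beside 59.1% of the list and 67.3% of its unpartnered peaks. From 500 to 1000 the run had 0 peaks, a band that held 5373 of the 21507 peaks of the list. Median width was 586 bp in the run, 552 bp in the other replicate 1 peaks of the window and 538 bp in the list. All 4 strong peaks of the run lacked a partner by its definition, and 37.8% of all replicate 1 peaks of 1000 or more did. These values chose the members or come from the same list, and no test was made on them.

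Set out by score, unpartnered peaks of the window were found from the weakest band to the strongest. From 200 to 300, 5 of 8 replicate 1 peaks had no partner, beside 70.1% of the list. From 300 to 500 it was 10 of 13, beside 60.3%, and from 500 to 1000 it was 1 of 3, beside 50.8%. From 1000 to 3000 it was 4 of 4, beside 38.7%, and from 3000 it was 1 of 2, beside 26.8%. Across the list the share without a partner fell as scores rose; in the window, which was chosen for unpartnered peaks, 5 of the 6 peaks of 1000 or more had none. In replicate 2, 2 of the 5 peaks from 300 to 500 had no partner, beside 49.0% of the replicate 2 list. From 500 to 1000 it was 0 of 4, beside 31.3%, and from 1000 to 3000 it was 0 of 2, beside 13.3%.

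**Figure D3:**
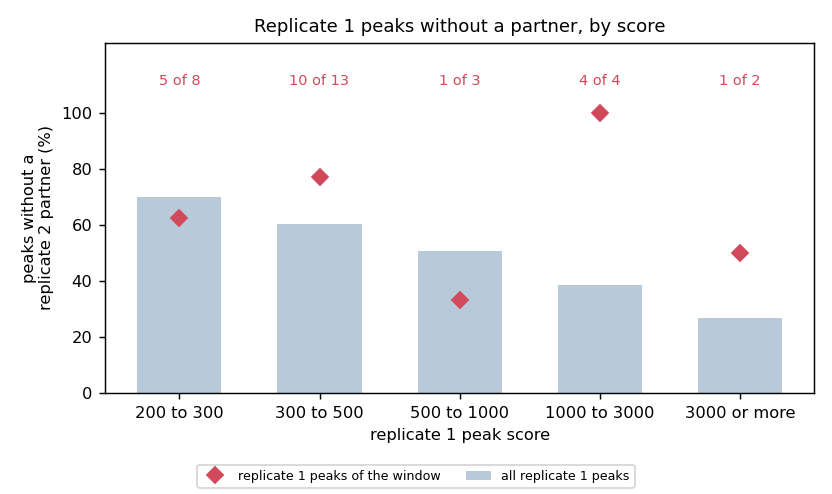
Share of replicate 1 peaks without a replicate 2 partner, in percent, by band of the replicate 1 score. Bars are all 21507 replicate 1 peaks, and diamonds with their counts are the 30 of the window, which was chosen for such peaks: bars fall from 70.1 to 26.8%, and in the band from 1000 to 3000 all 4 peaks of the window have no partner.

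Set beside the genome, the window was dense in replicate 1 peaks and the run was short for its number of regions. Of 5272 consecutive bins of 500 kb, 3 had 30 or more replicate 1 peaks and 311 had 11 or more replicate 2 peaks; the medians were 2 in both lists. The replicate 2 count was thus also above that of most bins, at a level that 5.90% of bins reached. By replicate-1-only regions, 1 bin reached the 21 of the window, and it held 25. The bins start at fixed positions, and the window is not 1 of them. Over the genome 9 runs of replicate-1-only regions were at least 16 regions long; this one had the shortest span, and the next took 484 kb. Stretches of 117 kb were laid from the start of each replicate 1 peak, and 34 of them held 16 or more replicate 1 peaks. In the 27 of these outside the window, replicate 2 had from 7 to 18 peaks. Where replicate 2 had none, the most replicate 1 peaks in such a stretch outside the window was 10. Stretches that start at neighbouring peaks overlap, and the window was chosen from the whole genome for this pattern, so these are ranks and not tests.

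Beyond the window, the nearest peaks were 16.9 kb before its left edge in replicate 1, with a score of 318.04, and 124 kb before it in replicate 2, with 219.71. To the right neither list had a peak until 322 kb past the window. There a pair was found with 3213.24 at chr15:7521689-7523147 in replicate 1 and 2317.91 in replicate 2. Both lists were therefore populated on each side of the Lifr stretch, and the nearest strong site on the Egflam side was in both.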

How the data were processed

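Peak lists of the 2 NR6A1 libraries were used; the 2 vector libraries are not analysed here. Per the submitters' processing notes the tools were Bowtie 0.12.7 and MACS and the build was mm9. The version of MACS, the control library and the peak threshold are not given in the sources used here. The score that the authors deposited for each peak is taken as its strength within its own library, and depth is unknown. Peaks were called per sample. Positions are 1-based on mm9.

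Partners overlapped by at least 1 bp (Python 3.11.15, pandas 2.3.3 and numpy 2.4.6, with the same counts from bedtools 2.31.1), and overlapping peaks were merged into regions. The code was tested on simulated lists with known partners and a planted run. All members of the window were accounted for by position, width, score and partner, and each run peak and replicate 2 peak is given in full. Members, lists and rules were chosen with earlier results of these data known. The alternatives were other partner definitions, score limits, list sizes, window membership and merging. The receptor pathway list was not run, because the gene table used is of GRCm38.p6 and no coordinates were moved between builds. Gene order and promoters are from RefSeq on that build.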

Additional observations from a re-analysis of the deposited data

How the results depend on the processing

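Over 27 values under 6 alternatives, 23 stayed near the reported value (within 1.5-fold for counts, within 1 SD of the pairs for the score ratio) and 4 moved. All 4 arose when peaks below the median score of their list were dropped, which keeps the upper 50%: 4 replicate 1 peaks and 4 replicate 2 peaks had a partner (9 each as reported), 8 regions were in replicate 1 only (21 as reported), and the longest run held 6 regions (16 as reported). That setting removes the weaker peaks by construction. With equal list sizes the run held 13 regions, and with peaks within 500 bp merged it held 14. It held 16 with a reciprocal overlap of at least 50%, with midpoints within 100 bp and with window membership by any overlap. The median log2 score ratio, -0.09 as reported, ran from -0.09 to 0.32, so its sign is not fixed. No paired analysis was possible because no vector list was used. With 1 list left, partners do not exist, so no replicate was left out. The lists give no reads, and a site missing from a list may lie just below its cutoff.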
